A study of Mus musculus with 16 samples.

Results

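Hhip and 8 further genes of the Hedgehog pathway were followed in mouse footpads, 9 genes of the 19938 that the arrays measured with a probe set naming 1 gene. The members are the inhibitor Hhip, the receptor Ptch1, the signal transducer Smo, the transcription factors Gli1, Gli2 and Gli3, and the ligands Shh, Ihh and Dhh. Hhip was chosen by its measured difference between the lines in pristane footpads, so its values on pristane arrays are a description and carry no test. The other 8 members were listed as its pathway and were tested over all genes. Each member had 1 probe set.

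Hedgehog ligands are secreted proteins that bind Ptch1, a receptor that holds Smo inactive while no ligand is present. When ligand is bound, Smo acts through the Gli factors, of which Gli1 and Gli2 mainly activate genes and Gli3 mainly represses them. Ptch1, Gli1 and Hhip are themselves well-known target genes of the pathway, and the Hhip protein binds the ligands at the cell surface and limits the signal. In the limb the pathway is known for growth plate cartilage, where Ihh is made, for nerve sheaths, where Schwann cells make Dhh, and for the skin and its appendages.

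Total RNA of footpads was hybridised to 16 Affymetrix Mouse Gene 1.0 ST arrays, with 4 arrays in each of 4 groups, and each group held 2 males and 2 females. AIRmax and AIRmin are outbred stocks bred for a high and a low acute inflammatory response, and AIRmax mice are the line susceptible to pristane-induced arthritis. Each line gave a control group and a pristane group, all from mice labelled as 2 to 4 months old. Pristane, a mineral oil, was given to the pristane groups as 2 intraperitoneal injections of 0.5 ml at an interval of 60 days. The protocol takes RNA at days 0 and 160 after the second injection, and day 0 is read here as the control groups, so that pristane and elapsed time cannot be told apart. The labels and methods do not say whether the control mice had also been injected, so a pristane response here means the difference between the groups labelled pristane and control. Outbred animals of 1 stock are not genetically identical, and no array is tied to an arthritis score. The methods call the 4 arrays of a group biological replicates run independently.

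All values are log2 signals, and differences are differences of group means on that scale, with the standard error (SE) of limma. A gene was called where its adjusted p was under 0.05 over all 19938 genes. Krt9, a keratin of footpad skin, had log2 signals of 9.97 to 10.76 in the control and 8.47 to 9.78 in the pristane footpads of AIRmax. In AIRmin its signals were 10.18 to 10.76 in control and 6.46 to 11.86 in pristane footpads. Krt9 serves here to check the tissue. The other 5 keratins of its list (Krt1, Krt10, Krt14, Krt5 and Krt16) had higher means in pristane than in control footpads of AIRmin. The mean of Krt9 was lower there. In AIRmax the means of all 6 keratins were lower in pristane footpads, but those other 5 overlapped between the groups. As a guide to the signal of genes that are not expressed, 3 Y-linked genes read 2.04 to 3.34 on the 8 female arrays and Xist read 3.45 to 4.32 on the 8 male arrays. The members read 4.41 to 8.46, above those levels, although probe sets differ in background and levels are not compared between genes here. The lowest value, 4.41, was that of Hhip on AIRmax pristane array 112, close to the highest Xist reading of 4.32. How far background limits the fold sizes of Hhip in that group was not tested. In whole footpad RNA, fewer cells of a type and less RNA per cell cannot be told apart.

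Hhip lies on the minus strand of mouse chromosome 8, at chr8:79965850-80058060 in RefSeq on GRCm38.p6. The bases just before all its RefSeq start sites (chr8:80058061-80058258, minus strand, GRCm38.p6) are shown because Hhip is the member on which the results turn, and they are 82.3% G or C over 198 bases.
Hhip upstream: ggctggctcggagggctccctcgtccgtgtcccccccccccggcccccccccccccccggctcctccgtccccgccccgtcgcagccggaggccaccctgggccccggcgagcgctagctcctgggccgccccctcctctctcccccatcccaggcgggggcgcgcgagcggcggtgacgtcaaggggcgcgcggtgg
No letters are in capitals because the GLI binding motif GACCACCCA and its shorter form CCACCCA, which lies within it, were not found there on either strand. The 250 bases before a start site were held for 7 of the 9 members (all but Gli1 and Shh). For Ptch1 and Gli2 these bases lay inside the RefSeq span of the gene, and for Hhip and Dhh they reached into it. GACCACCCA occurred in 0 of those 7 and in 0.225% of 32851 promoters, and CCACCCA in 0 of 7 and 8.11%. These counts describe the letters of this window only.

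Hhip was lowest in AIRmax footpads after pristane. The log2 signal of Hhip was 6.64, 6.80, 6.76 and 6.55 in AIRmax control footpads. In AIRmax pristane footpads it was 4.85, 5.84, 4.74 and 4.41. The first 2 arrays of each group are males, so both female arrays lay below both male arrays there. In AIRmin control footpads Hhip read 6.82, 6.98, 7.34 and 7.10. In AIRmin pristane footpads it read 6.68, 6.52, 6.45 and 6.39. The order of the group means was AIRmin control (7.06 ± 0.22, SD, n = 4), AIRmax control (6.69 ± 0.12), AIRmin pristane (6.51 ± 0.12) and AIRmax pristane (4.96 ± 0.62). Every AIRmax pristane array lay below all 12 others. AIRmax control and AIRmin pristane overlapped, and the other neighbours in this order did not.

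**Figure D1:**
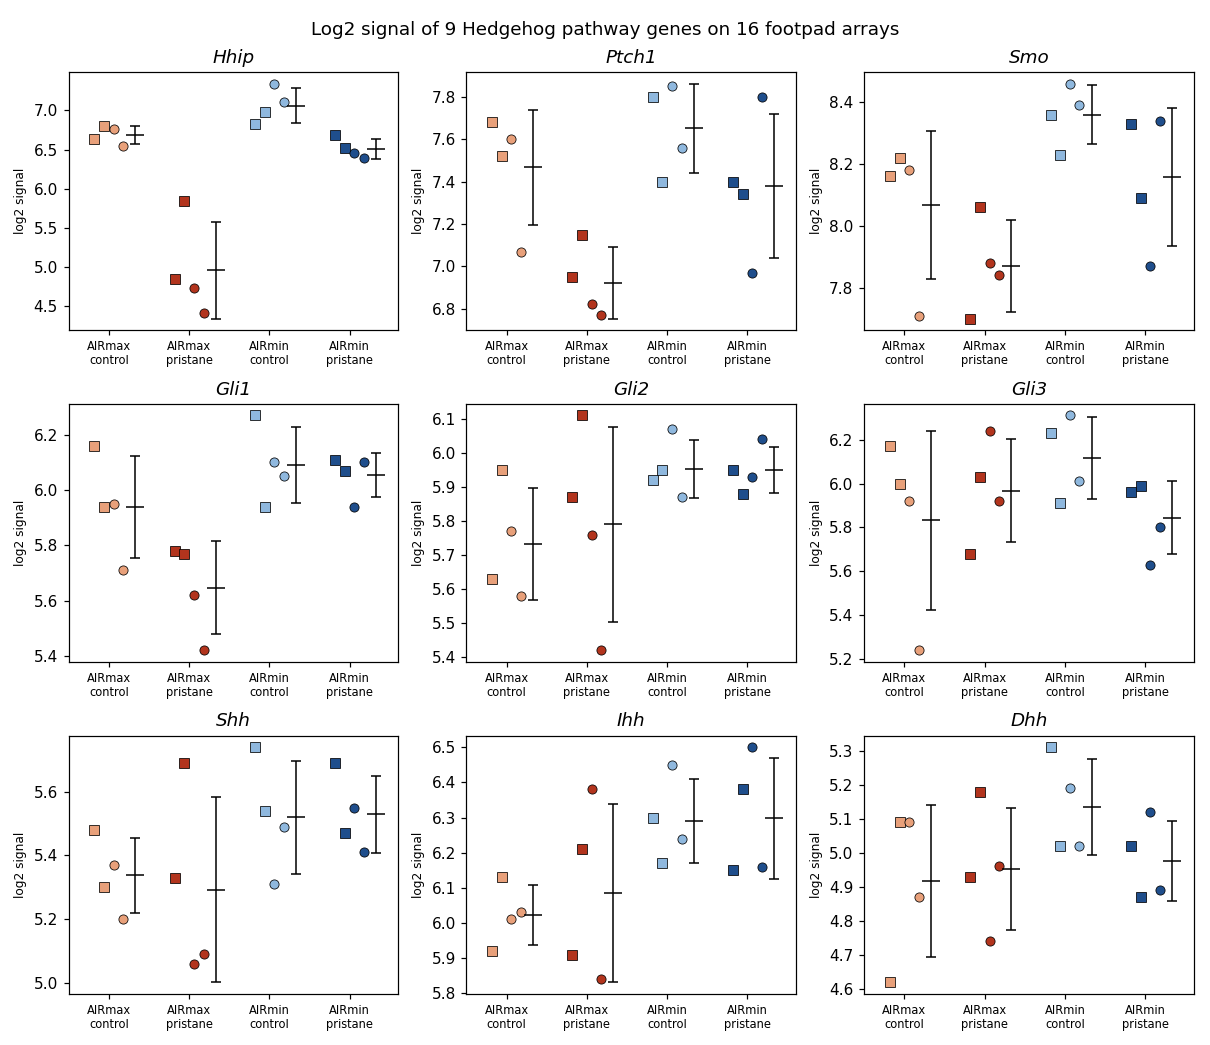
Log2 signal (vertical axis, a separate range in each panel) of the 9 Hedgehog pathway genes by group. Squares are male and circles female arrays, and the dash with its bar is the mean and SD of 4 arrays. Hhip in AIRmax pristane footpads runs from 4.41 to 5.84, below all other arrays, while Gli2, Gli3, Shh, Ihh and Dhh overlap between most groups.

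Between the lines in pristane footpads, the difference in Hhip (AIRmax minus AIRmin) was -1.55 (SE 0.27), which is 2.93-fold lower in AIRmax. Within AIRmax, the change with pristane was -1.72 (SE 0.27), or 3.30-fold lower. Within AIRmin the change was -0.55 (SE 0.12), or 1.46-fold, also without overlap between the groups. Subtracting the AIRmin change from the AIRmax change left -1.18 (SE 0.31). These comparisons share arrays with each other, so their values stand side by side and none supports another. Hhip was the 1 member among the 271 genes called in the line difference in pristane footpads (1.36% of genes) and the 1 member among the 56 called in the AIRmax response (0.281%), and nothing is read from these counts, because the first contrast chose it.

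Array 110, a male AIRmax pristane footpad, had the highest Hhip of its group at 5.84. Without it, the line difference in pristane footpads was -1.84 and the AIRmax response -2.02, and over the fits that left out each array in turn these ran from -1.84 to -1.37 and from -2.02 to -1.54. In males the line difference in pristane footpads was -1.25 and in females -1.85.

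In control footpads, on arrays that the choice of Hhip did not use, Hhip differed by -0.37 (SE 0.12), or 1.29-fold lower in AIRmax. All 4 AIRmax arrays (6.55 to 6.80) lay below all 4 AIRmin arrays (6.82 to 7.34), by a narrow margin. The exact two-sided permutation test gave p = 0.0286, the smallest that 70 relabellings of 4 against 4 arrays can give. Groups without overlap always give this p, so it adds nothing to the lack of overlap. Of all genes, 4.94% lay lower in AIRmax without overlap there. Over all genes limma gave an adjusted p of 0.216, so that the difference was not called. Earlier results of these data had already shown that these arrays do not overlap, so the value is no independent support. It was -0.18 in males and -0.57 in females, from 2 arrays against 2.

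The receptors come next. Ptch1, the ligand receptor and a target gene of the pathway, read 7.68, 7.52, 7.60 and 7.07 in AIRmax control and 6.95, 7.15, 6.82 and 6.77 in AIRmax pristane footpads. In AIRmin it read 7.80, 7.40, 7.85 and 7.56 in control and 7.40, 7.34, 6.97 and 7.80 in pristane footpads. The AIRmax groups overlapped through 1 control array, the female array 108 at 7.07. The AIRmax response of Ptch1 was -0.55 (SE 0.15, limma adjusted p = 0.166), and SAM called it. In AIRmin the change was -0.27 (limma adjusted p = 0.575), and the difference between the 2 responses was -0.27 (limma adjusted p = 0.852). Between the lines, Ptch1 differed by -0.46 in pristane (SE 0.17, limma adjusted p = 0.2) and by -0.18 in control footpads (limma adjusted p = 0.538).

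Smo, the membrane protein that carries the signal inward, read 8.16, 8.22, 8.18 and 7.71 in AIRmax control and 8.36, 8.23, 8.46 and 8.39 in AIRmin control footpads. AIRmax lay below AIRmin there without overlap, although 8.22 and 8.23 nearly touch. The difference was -0.29 (SE 0.12, limma adjusted p = 0.275), and without array 108, the low control array at 7.71, it was -0.17. In pristane footpads Smo read 7.70, 8.06, 7.88 and 7.84 in AIRmax and 8.33, 8.09, 7.87 and 8.34 in AIRmin. Those groups overlapped, with the same difference of -0.29 (limma adjusted p = 0.288). The change with pristane was -0.20 in each line, and neither was called (limma adjusted p = 0.534 in AIRmax), although without array 108 the AIRmax change was -0.31.

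**Figure D2:**
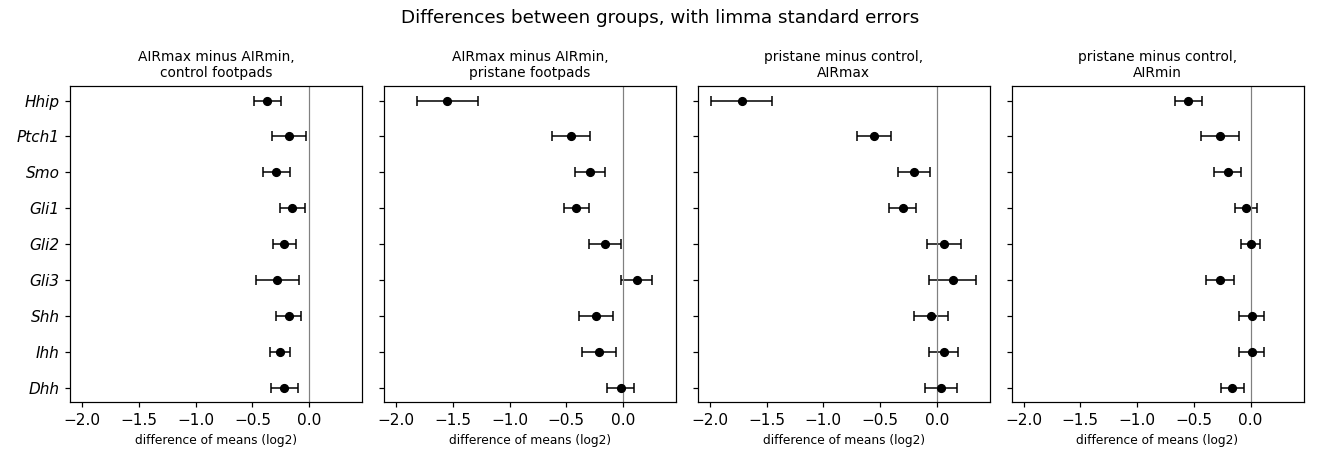
Difference of group means on the log2 scale (horizontal axis) for the 9 genes in 4 comparisons, with bars of 1 limma SE. Hhip stands farthest from 0 in every panel, from -0.37 in control footpads to -1.72 in the AIRmax response, and its pristane contrasts are the ones tied to its choice.

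Of the transcription factors, Gli1, whose transcription follows pathway activity, read 5.78, 5.77, 5.62 and 5.42 in AIRmax pristane and 6.11, 6.07, 5.94 and 6.10 in AIRmin pristane footpads. The groups did not overlap, and the difference was -0.41 (SE 0.11, limma adjusted p = 0.0957). With all 16 arrays in 1 fit the adjusted p of Gli1 was 0.0357. In control footpads Gli1 read 6.16, 5.94, 5.95 and 5.71 in AIRmax and 6.27, 5.94, 6.10 and 6.05 in AIRmin, with overlap and a difference of -0.15 (limma adjusted p = 0.506). Its change with pristane was -0.30 in AIRmax (SE 0.12, limma adjusted p = 0.327) and -0.04 in AIRmin, and the difference between these was -0.26 (SE 0.15, limma adjusted p = 0.72).

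Gli2, the main activator, ran from 5.42 to 6.11 in AIRmax pristane and from 5.88 to 6.04 in AIRmin pristane footpads, and its line differences were -0.16 there and -0.22 in control footpads. The first was -0.039 without array 112 and -0.27 without array 110, and it was 0.075 in males and -0.40 in females. Gli3, the main repressor, was the member with the highest value in AIRmax pristane footpads relative to AIRmin, at a difference of 0.12 (limma adjusted p = 0.696), against -0.28 in control footpads (limma adjusted p = 0.458). Its response was 0.14 in AIRmax and -0.27 in AIRmin (SE 0.12, limma adjusted p = 0.415), and these differed by 0.40 (SE 0.25, limma adjusted p = 0.733). Gli3 had 1 low control array, 108, at 5.24, where the other AIRmax control arrays read 5.92 to 6.17, and without it the AIRmax response was -0.06, the control line difference -0.085 and the difference of the responses 0.20.

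The ligands showed no called difference. Ihh, the ligand of growth plate cartilage, read 5.92, 6.13, 6.01 and 6.03 in AIRmax control and 6.30, 6.17, 6.45 and 6.24 in AIRmin control footpads. These groups did not overlap, and the difference was -0.26 (SE 0.09, limma adjusted p = 0.223). After pristane Ihh overlapped between the lines, at -0.21 (limma adjusted p = 0.485). Shh ran from 5.06 to 5.74 over the 16 arrays, with line differences of -0.24 in pristane and -0.18 in control footpads (limma adjusted p = 0.435 and 0.404). Dhh ran from 4.62 to 5.31, with line differences of -0.02 and -0.22 (limma adjusted p = 0.943 and 0.391). The responses of all 3 ligands to pristane lay between -0.16 and 0.06 in both lines.

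Counted together, none of the 8 members other than Hhip was called by limma in any of the 5 comparisons. At an unadjusted p under 0.05, 2 of the 8 passed in the line difference in pristane footpads (Gli1 and Ptch1), 2 in control footpads (Ihh and Smo), 2 in the AIRmax response (Ptch1 and Gli1) and 0 in the AIRmin response and in the difference of the responses. Over all genes those shares were 18.8%, 16.8%, 14.4%, 12.4% and 8.21%. SAM, the test of the study, called 1 of the 8, Ptch1 in the AIRmax response, and it was not run on the difference of the responses. Of all 19938 genes, SAM called 739 in the AIRmax response, 384 in the line difference in pristane footpads and 258 in control footpads. In control footpads, where limma called 0.0802% of genes, 0 of the 9 members were called. In the AIRmin response limma called 0% of genes, although 2469 had an unadjusted p under 0.05 and SAM called 424. In the difference of the responses it called 0.171% of genes and 0 members.

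In control footpads, all 9 members had lower means in AIRmax than in AIRmin, where 56.8% of all genes did, and the median difference of the 8 was -0.22 against -0.03 for all genes. In pristane footpads 8 of the 9 were lower, against 50.9%, with a median over the 8 of -0.22 against -0.01. With pristane, 5 of 9 were lower in AIRmax and 7 of 9 in AIRmin, against 44.3% and 45.3% of all genes, and the medians of the 8 were -0.01 and -0.10 against 0.03 and 0.02. The members are measured on the same arrays, so these counts are not independent. By arrays without overlap, 2 members lay below in the line difference in pristane footpads (Hhip and Gli1, background 5.81% of genes), 3 in control footpads (Hhip, Smo and Ihh, 4.94%), 1 in the AIRmax response (Hhip, 4.30%) and 1 in the AIRmin response (Hhip, 4.32%). No member lay above without overlap in any of them.

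Single arrays moved several members at once. Array 108 had the lowest value of the AIRmax control group for 7 of the 9 members, and without it the control line difference was -0.052 for Ptch1 and -0.071 for Gli1 as well. Without array 108 it was -0.33 for Hhip, -0.27 for Ihh, -0.20 for Dhh, -0.17 for Gli2 and -0.14 for Shh. The share of all genes that were lowest or highest on such an array is not given here. Array 112 had the lowest value of the AIRmax pristane group for 5 of 9. Array 110 had the highest value of the AIRmax pristane group for 6 of 9. In AIRmin control, array 114 was lowest for 6 and array 115 highest for 6.

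The rest of the pathway was covered by 25 further genes, of which 23 had a probe set naming 1 gene. None of the 23 was called in any of the 5 comparisons. At an unadjusted p under 0.05, 6 passed in the line difference in pristane footpads, 3 in control footpads, 6 in the AIRmax response, 4 in the AIRmin response and 3 in the difference of the responses, beside the shares of all genes given above. In control footpads 22 of the 23 were lower in AIRmax, against 56.8% of all genes, with a median of -0.15, and 16 of 23 were lower in pristane footpads, against 50.9%, with a median of -0.12. In the AIRmax response 9 of 23 were lower, with a median of 0.05, and in the AIRmin response 15 of 23, with a median of -0.06. In the difference of the responses 8 of 23 were lower, with a median of 0.06. Over all genes the shares that were lower in these were 44.3%, 45.3% and 48.7%, with medians of 0.03, 0.02 and 0.01. Disp1, which releases the lipid-modified ligand from the cells that make it, differed between the lines in pristane footpads by -0.52 (SE 0.13, limma adjusted p = 0.0845). Gpc3, a cell-surface proteoglycan that binds Hedgehog ligands, changed with pristane by -1.07 in AIRmax (SE 0.25, limma adjusted p = 0.125) and by -0.83 in AIRmin (SE 0.13, limma adjusted p = 0.0517). Gpc3 read 7.26 to 7.97 in AIRmax control and 5.99 to 7.12 in AIRmax pristane footpads, and 7.97 to 8.28 and 7.0 to 7.55 in the AIRmin groups, with no overlap in either line. Stk36, a kinase related to Fused of the fly pathway, had a change of 0.41 in AIRmax (limma adjusted p = 0.173) and of -0.15 in AIRmin (limma adjusted p = 0.606). SAM called Disp1 and Gpc3 in the AIRmax response and Boc and Gpc3 in the AIRmin response, and none of the 23 in the line differences. Over all genes it called 739 and 424 in these responses, and 384 and 258 in the line differences in pristane and control footpads.

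Of 20 genes known as Hedgehog targets or partners in skeleton and mesenchyme, 18 had a probe set naming 1 gene (all but Pthlh and Spp1), and none was called by limma in the 5 comparisons. At an unadjusted p under 0.05, 2 of the 18 passed in the line difference in pristane footpads (all genes 18.8%), 2 in control footpads (16.8%), 3 in the AIRmax response (14.4%), 6 in the AIRmin response (12.4%) and 3 in the difference of the responses (8.21%). Between the lines 9 of 18 were lower in pristane footpads, with a median of 0.01, and 12 of 18 in control footpads, with a median of -0.15. With pristane 12 of 18 were lower in AIRmax and 14 of 18 in AIRmin, with medians of -0.08 and -0.19. Over all genes the shares that were lower were 50.9%, 56.8%, 44.3% and 45.3% in this order, with medians of -0.01, -0.03, 0.03 and 0.02. Bmp4, a growth factor induced by the pathway in mesenchyme, read 7.19 to 7.77 in AIRmax control and 6.49 to 6.97 in AIRmax pristane footpads. In AIRmin it read 7.75 to 8.01 in control and 7.1 to 7.54 in pristane footpads, with no overlap in either line. Of all genes, 4.30% in AIRmax and 4.32% in AIRmin lay lower with pristane without overlap. Its change was -0.85 (SE 0.15, limma adjusted p = 0.0665) in AIRmax and -0.57 (SE 0.13, limma adjusted p = 0.116) in AIRmin, and its line difference in pristane footpads -0.59 (limma adjusted p = 0.0853). Grem1, an antagonist of such growth factors, changed by -1.01 in AIRmax (SE 0.21, limma adjusted p = 0.0953) and by -0.44 in AIRmin (limma adjusted p = 0.239). Pth1r, the receptor that works with Ihh in the growth plate, was 0.59 higher in AIRmax than in AIRmin pristane footpads (SE 0.20, limma adjusted p = 0.163), and its change was -0.01 in AIRmax and -0.55 in AIRmin. SAM called Bmp4 and Grem1 in the AIRmax response, Bmp4 in the AIRmin response and Foxl1 in the line difference in control footpads. Over all genes it called 739, 424 and 258 in these comparisons, in that order. Foxl1 and Boc are named here because SAM called them, chosen after their values were seen.

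Markers of other cell types also differed between the lines in pristane footpads, in both directions. The 6 macrophage markers had a summed linear signal of 3362 to 4545 in AIRmax pristane and 1499 to 2290 in AIRmin pristane footpads, and 4 of them were called higher. The 8 skeletal muscle markers summed to 3192 to 10194 and 12839 to 15663, all 8 were lower in AIRmax, and 1 was called. The 6 smooth muscle and pericyte markers summed to 1483 to 2014 and 2042 to 3188, with 6 of 6 lower and 0 called. The 8 chondrocyte markers summed to 538 to 697 and 655 to 740, with 5 of 8 lower and 0 called. The 6 footpad keratinocyte markers summed to 8020 to 25194 and 22185 to 32549, with 6 of 6 lower and 0 called. Lower in AIRmax were also 4 of 4 mast cell markers, 1 of them called, 5 of 5 adipocyte, 6 of 6 sweat gland and 2 of 3 Schwann cell markers, with 0 called. Higher in AIRmax were 7 of 8 fibroblast and synovial markers, with sums of 22199 to 28881 and 13053 to 21247 and 1 called. All 5 tendon, 6 endothelial and 6 neutrophil markers and 3 of 4 osteoblast markers were also higher, with 0 called. In control footpads 4 of 4 mast cell markers were lower in AIRmax as well, 1 of them called, and all 6 neutrophil markers higher. Lower there were 6 of 8 fibroblast and synovial, 4 of 5 tendon, 5 of 6 endothelial, 4 of 4 osteoblast and 4 of 6 macrophage markers. So were 8 of 8 chondrocyte, 6 of 6 smooth muscle and pericyte and 6 of 8 skeletal muscle markers, with 0 called. The same held for 5 of 6 keratinocyte, 5 of 6 sweat gland, 4 of 5 adipocyte and 2 of 3 Schwann cell markers, also with 0 called. On AIRmax pristane arrays 109 to 112, where Hhip read 4.85, 5.84, 4.74 and 4.41, the mean deviation of the skeletal muscle list from its 16-array mean was -0.40, -0.05, -1.69 and -1.11, and that of the smooth muscle and pericyte list -0.48, -0.37, -0.91 and -0.60. Within this group Hhip and these 2 lists were highest on array 110. So were the chondrocyte (-0.09), sweat gland (0.28) and mast cell (-0.18) lists, and the keratinocyte list, level with array 111 (0.32). The adipocyte list was lowest on array 110, level with array 111 (-1.09), and the endothelial list was lowest on array 110 (-0.33). Hhip was lowest on array 112, as were the keratinocyte (-1.56), chondrocyte (-0.35) and sweat gland (-0.7) lists. The macrophage (1.02), tendon (0.55), endothelial (0.33) and fibroblast and synovial (0.32) lists were highest of this group on array 112. The skeletal muscle and the smooth muscle and pericyte lists were lowest on array 111. On array 108, where Smo and Gli3 were low, the neutrophil list stood at 2.04 and the keratinocyte list at -0.68. The part of these cell types in the values of the members was not tested.

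**Figure D3:**
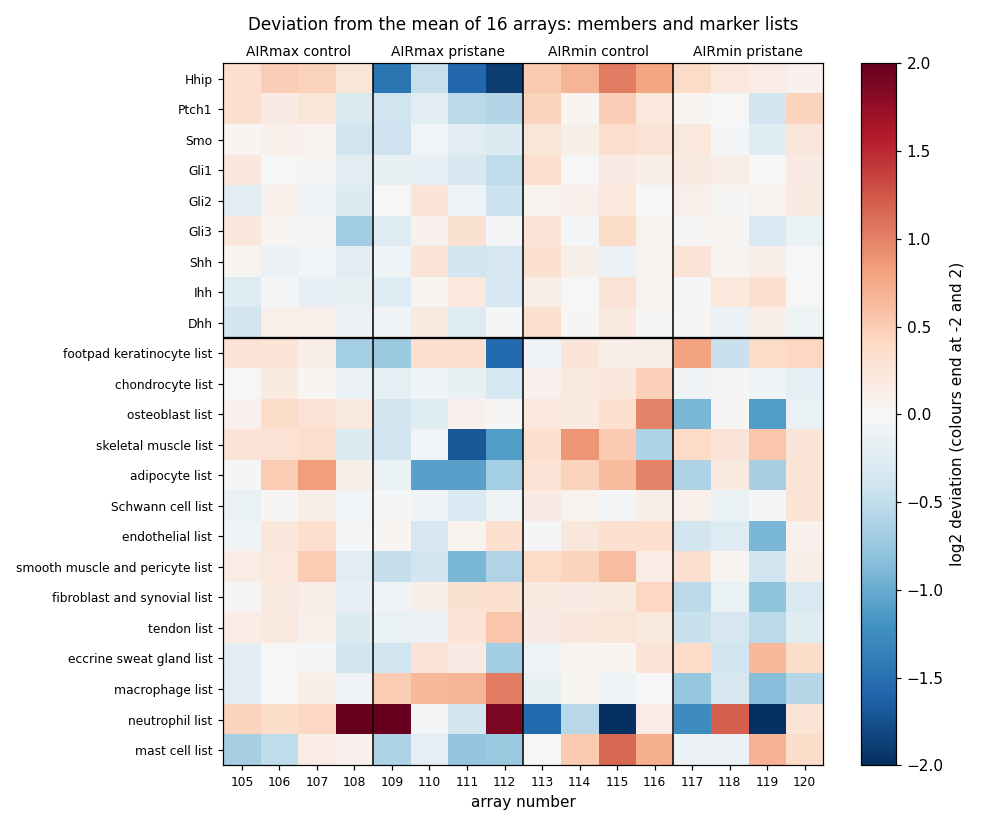
Deviation of each member (above the heavy line) and of the mean of each marker list (below it) from its mean over the 16 arrays, on the log2 scale, with 1 column per array and colours ending at -2 and 2. Hhip is low on arrays 109 to 112, where the macrophage list is high. The smooth muscle and pericyte, skeletal muscle, adipocyte, chondrocyte, Schwann cell and mast cell lists lie below their 16-array means on all of these arrays.

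The likeness of other genes to Hhip was described by Pearson's r over the 16 arrays, among the 9968 genes at or above the median signal, with no p, since all points share their arrays and groups. The most alike were Mllt3 (r = 0.931), a transcription elongation factor, Pcolce2 (r = 0.929), which aids collagen processing, Gpr1 (r = 0.923), a chemerin receptor, Clu (r = 0.922), an extracellular chaperone, and Cytl1 (r = 0.919), a secreted protein of cartilage. Cytl1 had differences close in size to those of Hhip, with a log2 change with pristane of -1.53 in AIRmax and -0.61 in AIRmin and a line difference in pristane footpads of -1.54. The most opposed were Cxcl13 (r = -0.93), a chemokine that attracts B cells, Ccl3 (r = -0.905), a macrophage chemokine, and Basp1 (r = -0.893). Cxcl13 read 6.42 ± 0.97 in AIRmax control and 10.59 ± 1.40 (SD, n = 4) in AIRmax pristane footpads. The members were compared whatever their signal, and some of them, such as Gli1 and Gli3, lie below the median and outside those 9968 genes. Of the members, Gli1 (r = 0.801), Ptch1 (r = 0.798) and Smo (r = 0.723) lay nearest to Hhip, and Gli3 was at 0.101.

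**Figure D4:**
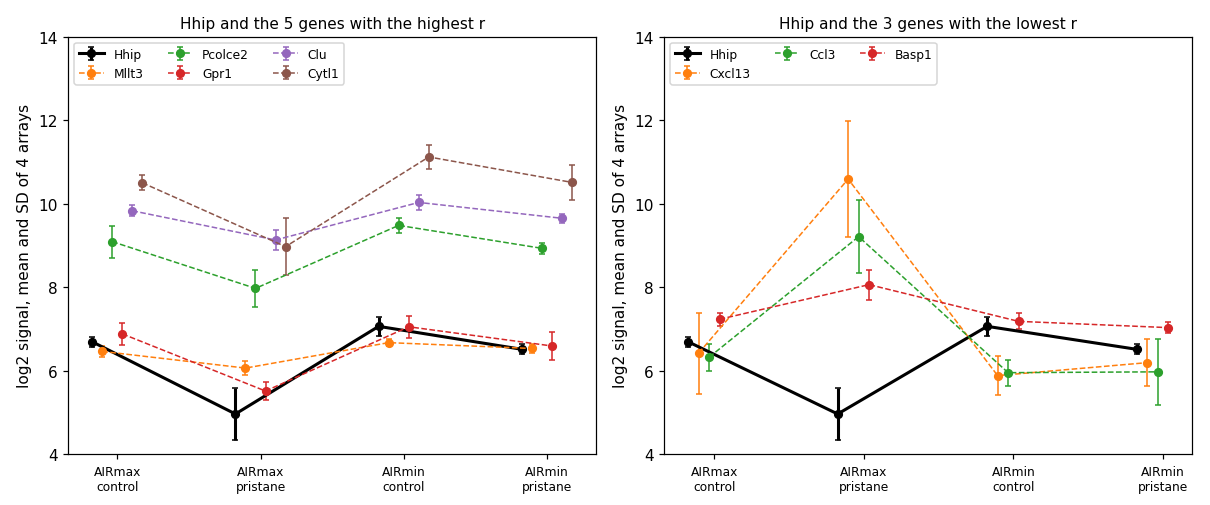
Mean log2 signal with SD of 4 arrays (vertical axis) in the 4 groups for Hhip and the 5 genes with the highest (left) and 3 with the lowest r to it (right). The 5 share the low point in AIRmax pristane footpads and the 3 have their high point there, and heights are not compared between genes.

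After the group means were taken out, the genes nearest to Hhip were others, namely 0610040J01Rik (r = 0.893), Cdk16 (r = 0.891), Pura (r = 0.878), Il33 (r = 0.865) and Krtdap (r = 0.859), a keratinocyte gene. Among the members, taken whatever their signal, Gli2 stood at 0.799 within groups, Shh at 0.578, Smo at 0.444 and Dhh at 0.404. Gli1 was at 0.38, Ptch1 at 0.363, Ihh at 0.353 and Gli3 at 0.2.

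On chromosome 8 beside Hhip, Otud4, Abce1 and Anapc10 on the lower-coordinate side and 4930505O20Rik, Frem3 and Smarca5 on the other had line differences in pristane footpads between -0.08 and 0.10, and none was called (limma adjusted p from 0.67 to 0.992). In control footpads their line differences ran from -0.41 for 4930505O20Rik (limma adjusted p = 0.293) to 0.27 for Smarca5 (limma adjusted p = 0.338), and none was called.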

How the data were processed

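The 16 footpad RNA samples were hybridised to Affymetrix Mouse Gene 1.0 ST arrays, 1 each. The authors deposited log2 signals per probe set. Sample titles name RMA and the submitters' notes name MAS5, with no versions, and array medians of 5.435 to 5.53 fit normalized arrays. Of 35556 probe sets, 21789 named 1 gene in the platform annotation, 1621 several and 12146 none, and 21698 matched RefSeq. The brightest probe set stood for each gene, giving 19938 genes. Groups were compared with limma 3.58.1 (lmFit and eBayes, R 4.3.3) on the arrays of both groups, and the difference of responses on all 16, with Benjamini-Hochberg adjustment over all genes. The authors standardized arrays and used SAM, which was rewritten here (70 relabellings, false discovery rate 0.05) as an alternative. Scripts were tested on simulated data. The number of arrays limits precision, and p-values weigh a difference against the spread between these arrays. Positions and sequence are from RefSeq, GRCm38.p6. Members and lists were chosen with earlier results of these data known. Named are all members, of each list the 3 genes with the smallest p in the line difference in pristane footpads, the genes most like Hhip and 3 neighbours on each side.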

Additional observations from a re-analysis of the deposited data

Results flagged for a closer look

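Smo on array 108, a female AIRmax control footpad, read 7.71, apart from the other 3 arrays of its group. The gap to the nearest array was 0.876 of the range of the group. Of 36 groups of 4 arrays examined (9 genes in 4 groups), this was the 1 past the limit, and chance flags about 1 in 20.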

How the results depend on the processing

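The count of members called in the line difference in pristane footpads was 1 and became 2 (Hhip and Gli1) with all 16 arrays in 1 fit and 0 by SAM. In the AIRmax response it was 1 and became 0 among genes at or above the median signal and 2 (Hhip and Ptch1) by SAM, and in the AIRmin response it was 0 and became 1 (Hhip) by SAM. Leaving out each array in turn gave 0 to 1 in both of these first comparisons and 0 to 1 in the difference of the responses, with 1 in each only without array 110. The cause was not tested. Calls of Hhip on pristane arrays are given as a description, since such arrays chose it. Of 758 alternative values over both sexes for 45 differences of members, 722 kept their sign and side of the threshold, 1 newly passed and 35 changed sign, in 14 differences near 0. Of 72 values in 1 sex alone (2 arrays against 2, no test), 11 changed sign, among them Gli3 in control footpads (0.017 in males), and 17 differences changed sign in 1 setting or more. With 1 array left out the 14 ran as follows. In the AIRmax response they were -0.063 to 0.11 for Dhh, -0.047 to 0.18 for Gli2, -0.062 to 0.25 for Gli3, -0.036 to 0.14 for Ihh and -0.18 to 0.032 for Shh. In the AIRmin response they were -0.089 to 0.021 for Gli1, -0.034 to 0.036 for Gli2, -0.058 to 0.063 for Ihh and -0.062 to 0.081 for Shh. In the difference of the responses they were -0.043 to 0.18 for Gli2, -0.045 to 0.14 for Ihh, -0.19 to 0.024 for Shh and -0.11 to 0.066 for Smo, and in the line difference in pristane footpads -0.098 to 0.048 for Dhh. Quantile normalization turned Dhh to 0.016 in that comparison and to -0.0046 in the AIRmax response, and Gli2 to 0.028 in the AIRmin response. Hhip kept its sign in every alternative run. On every array, the median over genes of the shift made by quantile normalization was at most 0.074 in size. No paired analysis was possible because no replicate number is shared between groups.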
